A study of Arabidopsis thaliana with 15 samples.

Results

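Plants of the fifth selfed generation of an msh1 memory lineage (Gen5 memory) were compared with Gen5 wild type (WT) plants of Arabidopsis ecotype Col-0. The members were taken by their sample labels, 3 memory and 3 WT plants of the 15 plants that were sequenced, and nuclear genes alone were read. Gen5 memory plants descend from an MSH1-RNAi line but have lost the RNAi transgene, and they keep an altered growth form with late flowering. By the methods 1 plant of the first generation (Gen1) founded the lineage by selfing, so the 3 memory plants represent 1 lineage. WT plants descend from negative events of the RNAi transformation and were raised alongside. All plants were taken at early bolting and carry labels as biological replicates. The methods speak of whole plants and the tissue labels of whole rosettes. Since plants were taken by stage, their age may differ between the groups and cannot be told apart from the memory state. The hour of harvest is not given in the sources used here, and many of the genes below have levels that cycle over the day. The other 9 plants were 3 Gen1 memory, 3 Gen1 nonmemory and 3 Gen1 WT plants, of which the Gen1 memory and Gen1 WT plants serve below to compare the generations.

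MSH1 encodes a plant protein of mitochondria and plastids that keeps organelle genomes stable. Loss of MSH1 changes growth and stress responses, and part of the plants that later lose the silencing transgene pass on the changed state without it. A rosette leaf runs growth, photosynthesis, defence and the decision to flower under the circadian clock, which drives daily waves of transcripts, and under hormones such as abscisic acid (ABA), auxin and gibberellin. The comparison asks which of these programmes differed in memory plants several generations after the transgene was gone.

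Totals over nuclear genes were 78395297 to 78850238 counts in memory plants and 77270653 to 79197768 in WT plants. Floral identity genes checked the labelled tissue: their 8 markers summed to 83.4 to 92.0 normalized counts (counts scaled by edgeR's TMM method over all plants) in memory plants and 102 to 133 in WT plants. Both AP1 and LFY were at 0 in all 6 plants, and none of the 3 tested floral markers was called. Marker sums were at most 2.17 normalized counts in memory and 3.93 in WT for shoot meristem, and at most 1.05 in memory and 1.96 in WT for root. Those of senescent leaves summed to 708 to 2080 in memory plants and 413 to 1367 in WT plants, and the groups overlapped. Memory plants were less alike than WT plants, with a biological coefficient of variation of 17.7% in memory and 9.86% in WT. Memory plant 2 was the plant farthest from the other members of its group in 57.9% of genes. MSH1 itself had 916, 638 and 900 normalized counts in memory plants, against 649, 755 and 739 in WT plants. The groups overlapped, the log2 fold change was 0.20 (SE 0.15), and MSH1 was not called (edgeR adjusted p = 0.334). No knockdown was thus seen in plants that the paper describes as free of the transgene.

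Of 19789 tested genes, 5340 (27.0%) were differentially expressed genes (DEGs), which had to pass an adjusted p-value of 0.05 in edgeR's quasi-likelihood test and to change by more than 0.5 on the log2 scale. Of the tested genes, 13.3% were called higher in memory and 13.7% lower, and in 55.7% the values of the groups did not overlap. The median log2 fold change of all tested genes was 0.01, with quartiles of -0.32 and 0.33. Changes of more than 2 on the log2 scale were called in 576 genes, 215 higher and 361 lower in memory. Below, the calls of each pathway list or of its parts are given, to be read beside these shares of all tested genes. Medians are given for some lists, and every fold change is memory over WT. Lists were chosen with earlier results of these data known, so their counts describe the picked genes and test no pathway.

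**Figure D1:**
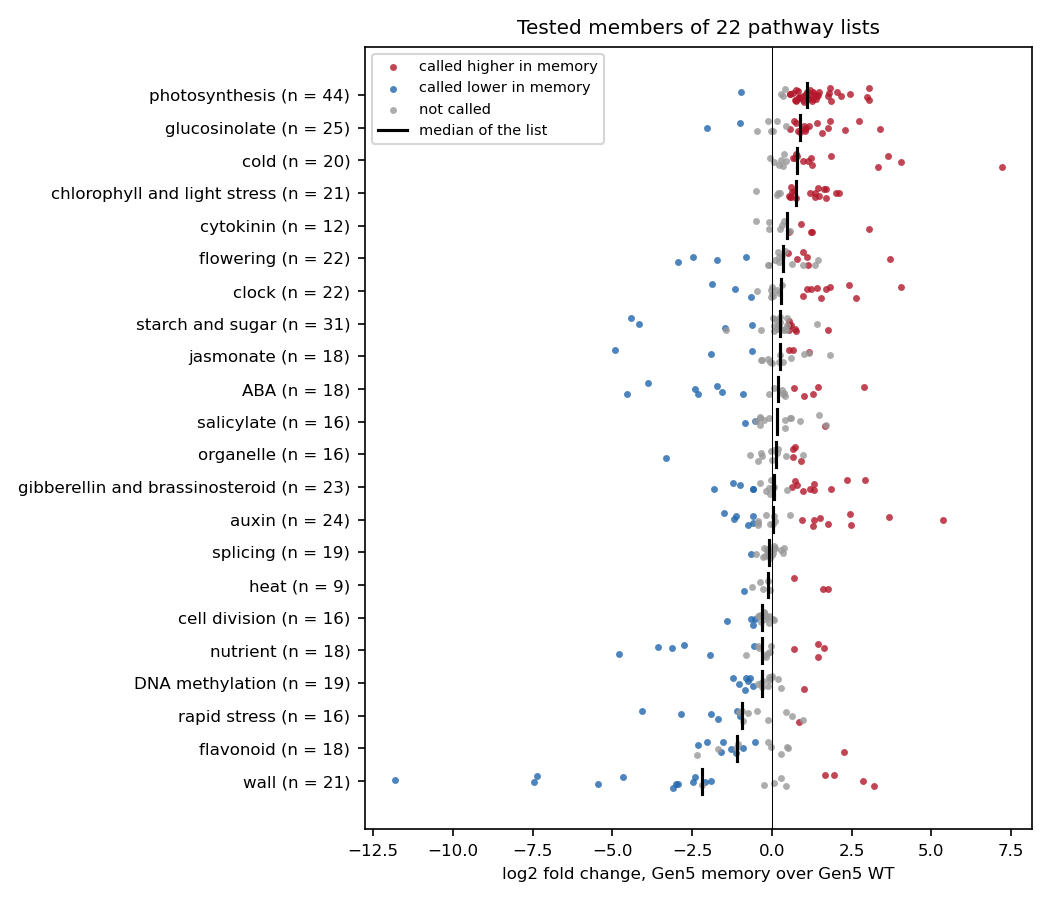
Log2 fold change of Gen5 memory over Gen5 WT (x axis) of each tested member of 22 pathway lists (rows, ordered by their medians). Red points were called higher in memory, blue points lower and grey points neither, and black bars are list medians. Photosynthesis has the highest median (1.11) and the wall list the lowest (-2.18).

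Among called genes with a mean of at least 100 normalized counts, the steepest falls were PHI-1, EXO and TCH4, of the listed touch group. TCH genes are switched on within minutes of touch, wind or handling. PHI-1, of the EXORDIUM family of cell expansion proteins, had 1.08, 9.06 and 7.32 normalized counts in memory plants, against 24711, 18204 and 20349 in WT plants. No memory plant came near the WT range, and the log2 fold change was -11.80 (SE 0.31, edgeR adjusted p = 9.84e-07). EXO, the founding gene of that family and a promoter of brassinosteroid-linked growth, had 143, 163 and 244 in memory plants, against 33862, 29413 and 34164 in WT plants. TCH4, a touch-induced xyloglucan endotransglucosylase that cuts and rejoins wall polymers, had 232, 411 and 517 in memory plants, against 70427, 59034 and 63177 in WT plants. Both genes were thus far below WT in every memory plant, with log2 fold changes of -7.46 for EXO and -7.37 for TCH4 (SE 0.22 and 0.31, edgeR adjusted p = 9.84e-07 and 3.67e-06). The touch-induced calmodulin-like calcium sensors TCH2 and TCH3 fell by 3.02 and 2.48 on the log2 scale (SE 0.36 and 0.22). All 5 touch genes of the list were called lower, but the list was chosen with earlier results of these data known. PHI-1 lies on chromosome 1 from 12851983 to 12853235, EXO on chromosome 4 from 5740219 to 5741591 and TCH4 on chromosome 5 from 23307006 to 23308680 (TAIR10.1).

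Most enzymes of the list that remodel wall xyloglucan fell with the touch genes, while several expansins, which loosen walls during growth, rose. Of 21 tested genes of the wall list, which includes the touch genes, 4 were called higher and 12 lower (76.2%, beside 27.0% of all genes). Its median was -2.18. Of its 9 tested xyloglucan enzymes 7 were called lower and none higher. XTH4 had 3212, 4021 and 3474 normalized counts in memory plants, against 26354, 27854 and 36861 in WT plants, and XTH23 had 15.2, 82.7 and 54.4 in memory plants, against 2895, 1978 and 1751 in WT plants. No value of a memory plant reached the WT range in either gene (log2 fold changes -3.09 and -5.45, SE 0.16 and 0.44, edgeR adjusted p = 8.04e-06 and 6.33e-05). XTH33 was also among the 10 steepest falls of all genes (-6.04, SE 0.42), whereas XTH31 of the same family was among the 10 steepest rises (4.15, SE 0.32). Of 7 expansins 4 were called higher and none lower. EXPA8 had 6961, 10743 and 7915 in memory plants, against 772, 1052 and 985 in WT plants, and EXPA1 had 11945, 12757 and 15862 in memory plants, against 1690, 2065 and 1877 in WT plants. Every memory plant lay above every WT plant, with log2 fold changes of 3.19 and 2.85 (SE 0.19 and 0.13, edgeR adjusted p = 1.56e-05 and 5.85e-06). EXPA4, EXPA5 and EXPA10 were not called, at 0.43, 0.05 and -0.24.

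Several transcription factors of rapid wounding and pathogen responses fell in the same plants. Of 16 tested genes of the rapid stress list 6 were called lower and 1 higher (43.8%, beside 27.0% of all genes), with a median of -0.93. WRKY18, a modulator of defence responses, had 895, 1637 and 1413 normalized counts in memory plants, against 25421, 22497 and 19060 in WT plants. SZF1, a salt-responsive zinc finger, had 1441, 2332 and 2537 in memory plants, against 19226, 14268 and 11980 in WT plants. The groups lay well apart in both genes (log2 fold changes -4.08 and -2.85, SE 0.23 and 0.25, edgeR adjusted p = 1.34e-05 and 9.65e-05). WRKY40, WRKY53, WRKY33 and MYB51, further regulators of defence, fell by 1.90, 1.68, 1.1 and 1.00 on the log2 scale. Of the 4 tested zinc fingers SZF1 alone was called. ZAT10, another, had overlapping groups and was not called (-0.74, SE 0.55, edgeR adjusted p = 0.319). The 4 ethylene response factors tested were not called, at -1.02 to 0.63. The lone rise, WRKY46 at 0.86 (SE 0.28), had overlapping groups and lost its call without memory plant 2, memory plant 3, WT plant 2 or WT plant 3. Without memory plant 1, 3 genes of the list were called higher. Factors of the DREB and ERF class were also among the steepest falls of all genes: DREB26, a regulator of leaf growth and stress, had 42.2, 39.6 and 29.3 in memory plants, against 6953, 5730 and 5685 in WT plants (log2 fold change -7.36, SE 0.16, edgeR adjusted p = 6.85e-07).

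Most cold acclimation genes moved the other way. The CBF (DREB1) factors switch on cold-regulated (COR) genes, whose proteins protect membranes and enzymes during freezing and drought. Of 20 tested members of the cold list 13 were called higher and none lower (65%, beside 27.0% of all genes), with a median of 0.78. No cold treatment of the growing plants is described. DREB1A (CBF3, on chromosome 4 from 13018010 to 13019400) had 2522, 2795 and 2698 normalized counts in memory plants, against 19.6, 17 and 17.7 in WT plants. All memory plants agreed closely and lay far above WT, and the log2 fold change of 7.20 was the largest rise of any gene with a mean of at least 100 counts (SE 0.11, edgeR adjusted p = 1.22e-07). CBF1 and CBF2 had lower levels, 93.1 to 225 and 221 to 518 in memory plants, against 9.44 to 17.7 and 12.8 to 57.9 in WT plants, with log2 fold changes of 3.65 and 3.32 (SE 0.43 and 0.50). ICE1 and ZAT12, which also act in the cold response, were not called, at 0.22 and 0.07.

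Targets of the CBF factors rose less than DREB1A itself. COR78 had 172656, 107256 and 95555 normalized counts in memory plants, against 34457, 36737 and 34015 in WT plants. GolS3, a galactinol synthase that makes protective sugars, had 2004, 1585 and 1084 in memory plants, against 80.5, 132 and 69.7 in WT plants. All memory plants exceeded all WT plants in both genes (log2 fold changes 1.84 and 4.05, SE 0.21 and 0.31, edgeR adjusted p = 0.00039 and 4.67e-05). The dehydrins ERD10 and LTI30 rose by 1.25 and 1.13. Another dehydrin, COR47, was called at 0.66, but in only 1 of 6 fits with a plant left out. COR15A, a chloroplast protein that stabilises membranes, had 194160, 157012 and 107390 in memory plants, against 129289, 127688 and 124554 in WT plants. It was abundant in both groups, the groups overlapped, and it was not called (log2 fold change 0.27, SE 0.19, edgeR adjusted p = 0.296). COR27, a night-phase clock and cold gene, was not called either, at -0.07.

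The sequences before the gene starts of COR78, LTI30 and COR15A are shown because each carries more than 1 copy of CCGAC, the core letters of the cold response element that CBF proteins bind, while COR78 and LTI30 rose and COR15A was not called. Each line holds the 250 bases before the annotated start in RefSeq's TAIR10.1, written 5′ to 3′ on the gene's strand, with CCGAC or its complement GTCGG in capitals.

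COR78: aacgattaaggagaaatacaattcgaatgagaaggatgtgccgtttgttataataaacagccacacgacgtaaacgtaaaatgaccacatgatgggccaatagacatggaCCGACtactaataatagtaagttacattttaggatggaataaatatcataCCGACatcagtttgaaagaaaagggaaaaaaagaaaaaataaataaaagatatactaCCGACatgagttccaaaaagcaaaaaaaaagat

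LTI30: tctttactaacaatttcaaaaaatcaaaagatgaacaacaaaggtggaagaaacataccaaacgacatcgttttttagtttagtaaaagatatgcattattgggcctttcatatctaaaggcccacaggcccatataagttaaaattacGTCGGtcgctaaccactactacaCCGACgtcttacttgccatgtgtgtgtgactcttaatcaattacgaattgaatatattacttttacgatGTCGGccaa

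COR15A: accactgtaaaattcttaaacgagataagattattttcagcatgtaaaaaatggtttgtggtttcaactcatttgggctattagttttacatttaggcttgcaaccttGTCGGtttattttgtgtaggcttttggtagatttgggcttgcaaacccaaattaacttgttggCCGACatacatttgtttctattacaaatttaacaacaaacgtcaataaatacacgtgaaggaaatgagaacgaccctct

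These windows are chr5:21240467-21240716 on the plus strand (COR78), chr3:18940393-18940642 on the plus strand (LTI30) and chr2:17712331-17712580 on the minus strand (COR15A). COR78 holds 3 copies, which begin 140, 90 and 33 bases before the start, LTI30 holds 3 and COR15A 2. The element was present in 4 of 10 called targets and in 2 of 5 targets that were not called, so it did not separate them. Over all genes, 12.1% of those called higher and 12.1% of those called lower held CCGAC on either strand, against 13.1% of all tested genes.

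Clock genes of the morning, the day and the evening were among those that rose, in 4 of 7, 2 of 2 and 4 of 10 tested genes. The clock is a loop in which the morning factors CCA1 and LHY repress evening genes such as TOC1, and the pseudo-response regulators PRR9, PRR7 and PRR5 repress CCA1 and LHY in turn through the day. Of 22 tested clock genes 10 were called higher and 3 lower (59.1%, beside 27.0% of all genes), with a median of 0.27. PRR9 had 1002, 771 and 798 normalized counts in memory plants, against 71.7, 66.1 and 17.7 in WT plants. PRR5 had 9916, 9947 and 8595 in memory plants, against 1891, 2260 and 1130 in WT plants, and PRR7 had 17362, 15908 and 15386 in memory plants, against 4806, 5080 and 3844 in WT plants. Every memory plant was above every WT plant in these 3 genes, with log2 fold changes of 4.05, 2.43 and 1.83 (SE 0.40, 0.23 and 0.12, edgeR adjusted p = 0.000181, 0.00014 and 2.2e-05). LNK1 and LNK2, coactivators of the clock, rose by 1.24 and 1.53. CCA1 had 1455, 1742 and 1316 in memory plants, against 630, 678 and 794 in WT plants (log2 fold change 1.1, SE 0.13, edgeR adjusted p = 0.000433). Its partner LHY had 353, 397 and 303 in memory plants, against 272, 259 and 321 in WT plants, with overlapping groups and no call (0.31, SE 0.15, edgeR adjusted p = 0.144). The morning factors RVE8 and RVE4 were not called either, at 0.23 and -0.01.

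Among evening genes, FKF1, a blue light receptor that promotes flowering, had 11721, 11092 and 11540 normalized counts in memory plants, against 1988, 2271 and 1330 in WT plants. GI, its partner, had 22632, 20548 and 21102 in memory plants, against 7018, 6903 and 6067 in WT plants. The groups were clearly separate in both, with log2 fold changes of 2.62 and 1.69 (SE 0.18 and 0.09, edgeR adjusted p = 3.14e-05 and 1e-05). ELF4, of the evening complex, and PRR3 rose by 1.41 and 0.98. TOC1 had 16781, 17282 and 17092 in memory plants, against 17781, 17963 and 16193 in WT plants. Its values overlapped almost fully, and the log2 fold change was -0.02 (SE 0.07, edgeR adjusted p = 0.862). LUX and ELF3, the other parts of the evening complex, were not called either, at -0.01 and 0.04. BOA, a relative of LUX, fell by 0.66 (SE 0.08), and the MYB factors RVE1 and RVE2 fell by 1.87 and 1.16 (SE 0.19 and 0.15, edgeR adjusted p = 0.000181 and 0.000634).

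**Figure D2:**
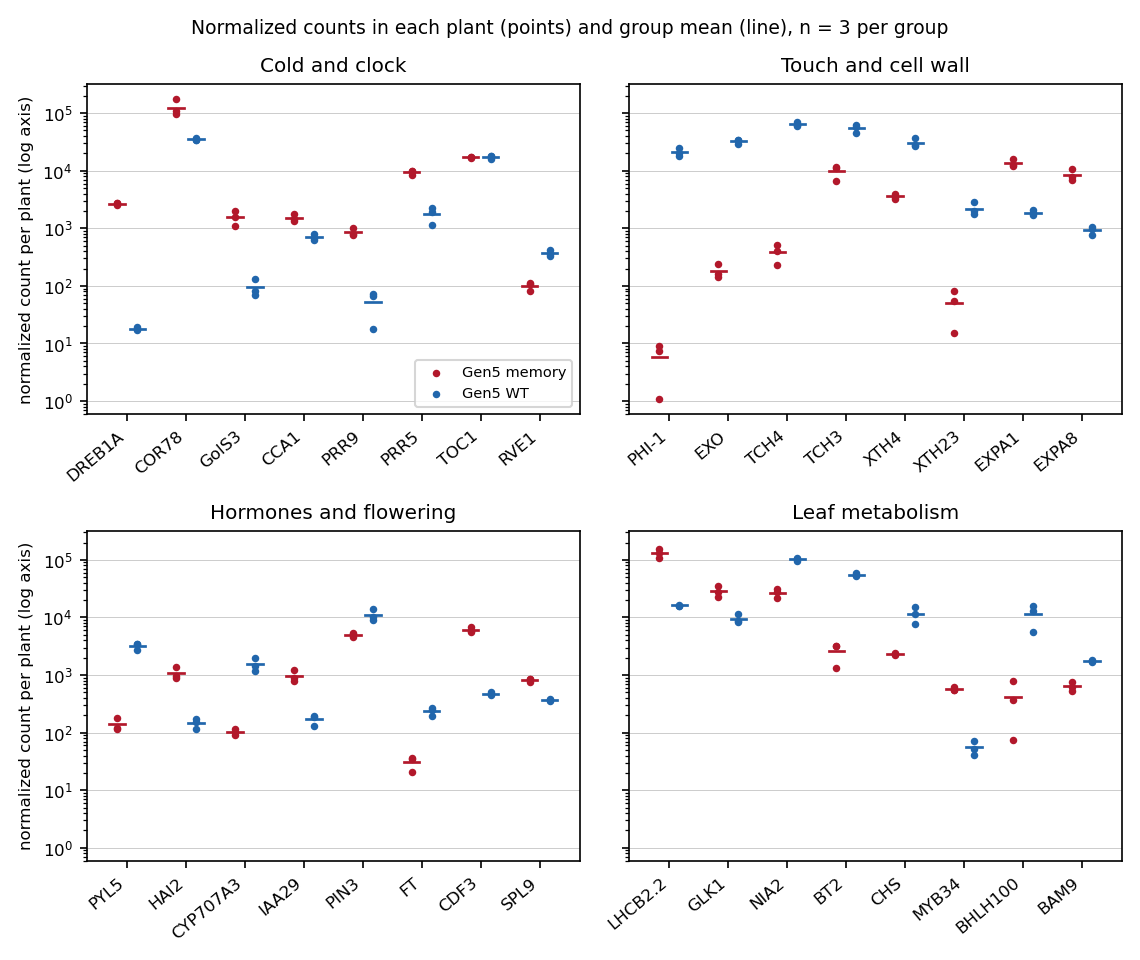
Normalized counts (y axis, log scale) of example genes in each Gen5 memory plant (red points, left of each pair) and each Gen5 WT plant (blue points, right), with lines at the group means, n = 3 per group. TOC1 is the gene whose groups overlap, while PHI-1, EXO and TCH4 are far lower and DREB1A is far higher in memory plants.

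The evening element, AAAATATCT, is a clock motif bound by CCA1 and its relatives, and it stood before the start of PRR5, FKF1, TOC1, LUX and BOA. The promoters of PRR5 and FKF1, which rose, and of TOC1, which was not called, are shown in the same form as above, with the element or its complement AGATATTTT in capitals.

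PRR5: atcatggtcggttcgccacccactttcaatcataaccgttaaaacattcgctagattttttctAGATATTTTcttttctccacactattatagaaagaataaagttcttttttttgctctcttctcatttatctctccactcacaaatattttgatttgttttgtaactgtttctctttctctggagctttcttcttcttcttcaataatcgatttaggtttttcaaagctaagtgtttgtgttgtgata

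FKF1: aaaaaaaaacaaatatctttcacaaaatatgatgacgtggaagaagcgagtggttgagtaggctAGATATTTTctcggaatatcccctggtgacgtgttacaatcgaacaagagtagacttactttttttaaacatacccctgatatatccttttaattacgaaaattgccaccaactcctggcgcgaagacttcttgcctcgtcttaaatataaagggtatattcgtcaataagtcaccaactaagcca

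TOC1: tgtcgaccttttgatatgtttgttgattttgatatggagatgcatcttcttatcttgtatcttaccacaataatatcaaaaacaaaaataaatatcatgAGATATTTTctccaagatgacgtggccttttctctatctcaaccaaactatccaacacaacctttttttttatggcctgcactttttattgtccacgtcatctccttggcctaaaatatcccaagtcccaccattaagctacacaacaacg

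The windows are chr5:8358547-8358796 on the minus strand (PRR5), chr1:25508389-25508638 on the plus strand (FKF1) and chr5:24674713-24674962 on the plus strand (TOC1), and the element begins 187, 186 and 151 bases before the start. It was present in 2 of 10 clock genes called higher and in 3 of the other 12. Over all genes it was held by 4.59% of those called higher (121 of 2635) and by 1.89% of those called lower (51 of 2704), against 2.56% of all tested genes (506 of 19788). The G-box CACGTG, a motif of light and ABA responses, was held by 9.91% of the higher genes and 6.21% of the lower genes, against 7.35% of all tested genes. These shares are descriptions and were not tested, and a match of letters is not a bound site.

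**Figure D3:**
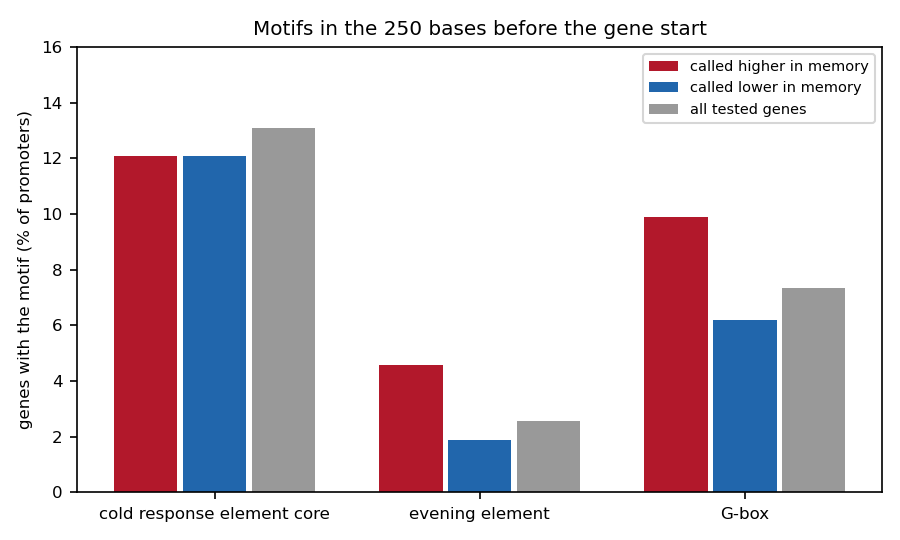
Share of promoters (y axis, percent of genes) that hold each of 3 motifs on either strand in the 250 bases before the gene start, for genes called higher in memory (red), genes called lower (blue) and all tested genes (grey). The evening element stands at 4.59% in higher genes and 1.89% in lower genes, whereas the cold response element core is at 12.1% in both.

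Nuclear genes of photosynthesis rose almost as a block. Of 44 tested members 40 were called higher and 1 lower, with a median of 1.11, beside 13.3% of all tested genes called higher. The antenna proteins that bind chlorophyll and pass light energy to the photosystems rose in 17 of 18 genes. LHCB2.2, of the mobile antenna of photosystem II, had 153861, 133481 and 108641 normalized counts in memory plants, against 16051, 16319 and 16101 in WT plants. The lowest memory plant was far above the highest WT plant (log2 fold change 3.03, SE 0.14, edgeR adjusted p = 4.74e-06). LHCB2.1 and LHCB2.3 rose by 2.99 and 3.03, but reads were kept where they mapped to 1 place, so the split among such close copies is uncertain. LHCB4.3, a minor antenna form, was the exception, with 3999, 3641 and 4078 in memory plants, against 7634, 6838 and 8309 in WT plants. It lay lower in every memory plant, with a log2 fold change of -0.96 (SE 0.10, edgeR adjusted p = 0.00019).

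Photosystem subunits were called higher in 20 of 21 genes and lower in none. PSAD-2 and PSAN of photosystem I led them, at 2.17 and 1.75 (SE 0.18 and 0.17). NPQ4, which sheds excess light energy as heat, had 112521, 100415 and 105998 normalized counts in memory plants, against 83885, 82681 and 92872 in WT plants. Its groups did not overlap, but the log2 fold change of 0.30 (SE 0.09, edgeR adjusted p = 0.0307) was under the threshold. Rubisco, which fixes carbon, changed less: RCA, its activase, rose by 0.72 (SE 0.09), while the main small subunit gene RBCS1A was not called at 0.35 (SE 0.11). RBCS2B was called at 0.58 (SE 0.16), and its call was lost without memory plant 2, WT plant 1 or WT plant 2.

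Transcripts of chlorophyll synthesis genes and of their regulators rose as well. Pigment was not measured here, and the paper describes the leaves of memory plants as pale. Of 12 synthesis genes 11 were called higher, and none of the 21 tested genes of the chlorophyll and light stress list was called lower (median 0.77). The list had 81% of its genes called, beside 27.0% of all genes. GLK1, a factor that switches on chloroplast genes, had 27702, 35679 and 22520 normalized counts in memory plants, against 8233, 8512 and 11272 in WT plants. HEMA1, the entry enzyme of tetrapyrrole synthesis, had 15293, 9586 and 13507 in memory plants, against 2702, 2701 and 6392 in WT plants. All memory plants were above all WT plants in both (log2 fold changes 1.62 and 1.71, SE 0.19 and 0.35, edgeR adjusted p = 0.000382 and 0.00616), although WT plant 3 had more HEMA1 than the other WT plants. GUN5 and GUN4, of the magnesium branch, rose by 1.71 and 1.44. NYC1, an enzyme of chlorophyll b breakdown, also rose, by 2.01 (SE 0.24). The early light-induced proteins ELIP1 and ELIP2, which build up under light stress, were not called, at 0.15 and -0.50.

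The listed ABA genes divided by their role in the pathway. Of 18 tested ABA genes 5 were called higher and 7 lower (66.7%, beside 27.0% of all genes), with a median of 0.18. ABA binds PYR/PYL receptors, which then block clade A phosphatases and so free the kinase OST1 (SnRK2.6) to act. All 5 listed genes of receptors and kinase were called lower, and other members of the receptor family were not listed. Of 6 tested phosphatases of the list 3 were called higher and none lower. PYL5 had 116, 181 and 118 normalized counts in memory plants, against 3390, 3446 and 2756 in WT plants, and PYL4 had 811, 1317 and 1127 in memory plants, against 5742, 6543 and 4948 in WT plants. Neither receptor overlapped between groups (log2 fold changes -4.53 and -2.40, SE 0.19 and 0.18, edgeR adjusted p = 3.38e-06 and 4.72e-05), and OST1 fell by 1.57 (SE 0.10). HAI2, a phosphatase that ABA induces, had 976, 1396 and 873 in memory plants, against 115, 152 and 174 in WT plants, and ABI1, another, had 6646, 8305 and 6318 in memory plants, against 3528, 3417 and 3531 in WT plants. Both lay above WT in every memory plant (2.88 and 1.02, SE 0.22 and 0.11, edgeR adjusted p = 5.15e-05 and 0.000217). NCED3, the rate-limiting enzyme of stress-induced ABA synthesis, rose by 1.45 (SE 0.27), and the ABA-degrading enzymes CYP707A3 and CYP707A1 fell by 3.88 and 2.31 (SE 0.21 and 0.16). RAB18, a classic ABA output, was not called at 0.31 (SE 0.28), with memory plant 2 at 12025 normalized counts and the other memory plants at 5813 and 5414, against 5417 to 6781 in WT plants. The phosphatase HAI1 was called at 1.28 (SE 0.35), but not without WT plant 1 or WT plant 2. Without either of these WT plants, 3 ABA genes were called higher in place of 5.

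Transcripts of the 4 listed auxin synthesis genes rose, and those of auxin transport and response changed in both directions. Of 24 tested auxin genes 9 were called higher and 6 lower (62.5%, beside 27.0% of all genes), with a median of 0.04. The 4 listed synthesis genes were all called higher, and other genes of auxin synthesis were not listed. TAA1, of the first step, had 215, 307 and 241 normalized counts in memory plants, against 81.5, 74.5 and 111 in WT plants. Its groups did not overlap (log2 fold change 1.51, SE 0.22, edgeR adjusted p = 0.00118). The low-level YUC2, YUC8 and YUC9, of the second step and named after their values were seen, rose by 2.46, 3.66 and 5.35 (SE 0.38, 0.39 and 0.81). Among carriers that export auxin, PIN7 rose by 1.29 and PIN3 fell by 1.12 (SE 0.11 and 0.17). The Aux/IAA repressor IAA29 had 877, 1226 and 783 in memory plants, against 188, 130 and 195 in WT plants, and IAA3 had 2983, 3255 and 2688 in memory plants, against 6337, 6759 and 7507 in WT plants. IAA29 was higher and IAA3 lower in every memory plant (2.49 and -1.20, SE 0.22 and 0.10, edgeR adjusted p = 9.65e-05 and 6.94e-05).

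Gibberellin and brassinosteroid genes also changed in both directions, 10 higher and 5 lower of 23 tested (65.2%, beside 27.0% of all genes). Their median was 0.05. The synthesis gene GA20OX1 rose by 1.84 and GA3OX1, of the last step, fell by 1.23 (SE 0.33 and 0.16), while of 4 genes that inactivate gibberellin GA2OX2 fell by 1.83 (SE 0.20) and the low-level GA2OX1 rose by 2.92 (SE 0.43). The receptors GID1A and GID1B rose by 0.78 and 1.33, and the DELLA repressor RGA1 by 0.63. DWF4, a rate-limiting enzyme of brassinosteroid synthesis, fell by 0.99 and BR6OX2, of the last steps, rose by 1.18 (SE 0.12 each). PIF4, a growth factor restrained by phytochrome, had 17499, 19219 and 13603 normalized counts in memory plants, against 8470, 9636 and 7847 in WT plants. Memory values were all above WT values (log2 fold change 0.96, SE 0.14, edgeR adjusted p = 0.00107). Of 12 tested cytokinin genes 5 were called higher and none lower (41.7%, beside 27.0% of all genes). Among them were the degrading enzyme CKX5 (3.04, SE 0.22), the synthesis gene IPT3 (1.24, SE 0.13) and the response regulator ARR8 (1.26, SE 0.12). Without memory plant 3, 1 cytokinin gene was called lower.

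Genes of flowering time fitted no single direction, with 6 called higher and 4 lower of 22 tested (45.5%, beside 27.0% of all genes). Their median was 0.36. FT, the mobile signal that starts flowering, had 20.6, 35.1 and 35.6 normalized counts in memory plants, against 270, 191 and 250 in WT plants. It was lower in every memory plant, by 2.95 on the log2 scale (SE 0.27, edgeR adjusted p = 0.00011). CDF3, of the CDF repressors of CO and FT, had 5895, 6946 and 5639 in memory plants, against 455, 504 and 465 in WT plants, and CDF1 had 1671, 1796 and 1658 in memory plants, against 802, 856 and 952 in WT plants. The groups were apart in both (3.70 and 0.98, SE 0.10 and 0.09, edgeR adjusted p = 9.84e-07 and 0.000121). SVP and SNZ, further repressors, rose by 0.79 and 1.1, whereas the FT repressors TEM1 and TEM2 fell by 1.71 and 2.47 (SE 0.21 and 0.24) and CDF2 by 0.80. SPL9, a promoter of the adult phase, rose by 1.14 (SE 0.10). FLC, the vernalization repressor, had 107, 120 and 47.1 in memory plants, against 0, 47.2 and 54.0 in WT plants, which overlapped and gave no call (1.43, SE 0.87, edgeR adjusted p = 0.225). SOC1 was called at 0.51 (SE 0.13), just above the threshold, and lost its call without memory plant 2, WT plant 2 or WT plant 3.

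In the salicylate and jasmonate defence pathways the spread between plants was wide. Of 16 tested salicylate genes 1 was called higher and 2 lower, a share below the 27.0% of all genes. PR1, the classic salicylate output, had 9277, 23413 and 17737 normalized counts in memory plants, against 13336, 3322 and 1402 in WT plants. The groups overlapped through WT plant 1, and PR1 was not called (1.48, SE 0.73, edgeR adjusted p = 0.142), nor was PR2 (0.87, SE 0.48). Without WT plant 1, 6 salicylate genes were called higher in place of 1, and without WT plant 3, 4 were called lower in place of 2. The lower count was 1 without memory plant 1 or 2 or WT plant 1 or 2. Of 18 tested jasmonate genes 3 were called higher and 3 lower (33.3%, beside 27.0% of all genes). MYC2, the main jasmonate factor, had 5839, 9105 and 6691 in memory plants, against 3433, 3591 and 2633 in WT plants, and JAZ7, a repressor, had 3.25, 18.1 and 4.18 in memory plants, against 320, 239 and 222 in WT plants. Both were separate between groups, in opposite directions (1.17 and -4.93, SE 0.18 and 0.49, edgeR adjusted p = 0.00148 and 0.000177). LOX2, a synthesis enzyme, had 194839 to 261486 in memory plants, against 209972 to 245874 in WT plants, and was not called. JAZ10 and VSP2 stood highest in memory plant 2, at 305 and 6805, against 26 and 26.1 and 2284 and 1903 in the other memory plants, and without that plant 8 jasmonate genes were called lower in place of 3.

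Most genes of glucosinolates, the sulphur-rich defence compounds of cabbage relatives, rose over WT, with 17 of 25 tested genes called higher, 2 lower and a median of 0.89. The called share was 76%, beside 27.0% of all genes. MYB34, which drives the indole branch, had 548, 632 and 545 normalized counts in memory plants, against 52.0, 72.7 and 41.2 in WT plants. MYB28, which drives the aliphatic branch, had 6049, 5465 and 5175 in memory plants, against 1761, 2193 and 2289 in WT plants. Neither overlapped between groups (log2 fold changes 3.38 and 1.42, SE 0.21 and 0.12, edgeR adjusted p = 2.08e-05 and 7e-05). Core enzymes rose with them, CYP79F1 by 0.89 in the aliphatic branch and CYP79B2 and CYP83B1 by 1.81 and 1.04 in the indole branch. CYP81F2, which modifies indole glucosinolates in defence, fell by 2.02 (SE 0.25), and MAM3, of chain elongation, by 1.00 (SE 0.23).

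In Gen1 the glucosinolate list gave other counts: 1 of the 25 genes was called higher and 7 lower in memory than in WT plants. The memory effect differed between generations in 18 of the 25 genes (interaction test, edgeR adjusted p-value under 0.05), beside 6.03% of all genes, and in 17 of them it was higher in Gen5. That number was 14 to 19 when any 1 of the 12 plants was left out. The list's median log2 fold change was 0.89 in Gen5 and -0.23 in Gen1. MYB28 averaged 5563 ± 446 normalized counts in Gen5 memory and 2081 ± 281 in Gen5 WT, and 5323 ± 503 in Gen1 memory and 4003 ± 407 in Gen1 WT (SD, n = 3 each). CYP79F1 averaged 19402 ± 2932 in Gen5 memory and 10470 ± 892 in Gen5 WT, and 16999 ± 5075 in Gen1 memory and 22682 ± 1458 in Gen1 WT (SD, n = 3 each). For both genes the means of Gen5 and Gen1 memory plants lay closer together than those of Gen5 and Gen1 WT plants. Between the WT groups 19 of the 25 genes were called lower in Gen5 than in Gen1 and 2 higher (median -1.11), beside 10.7% of all genes called in that comparison.

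**Figure D4:**
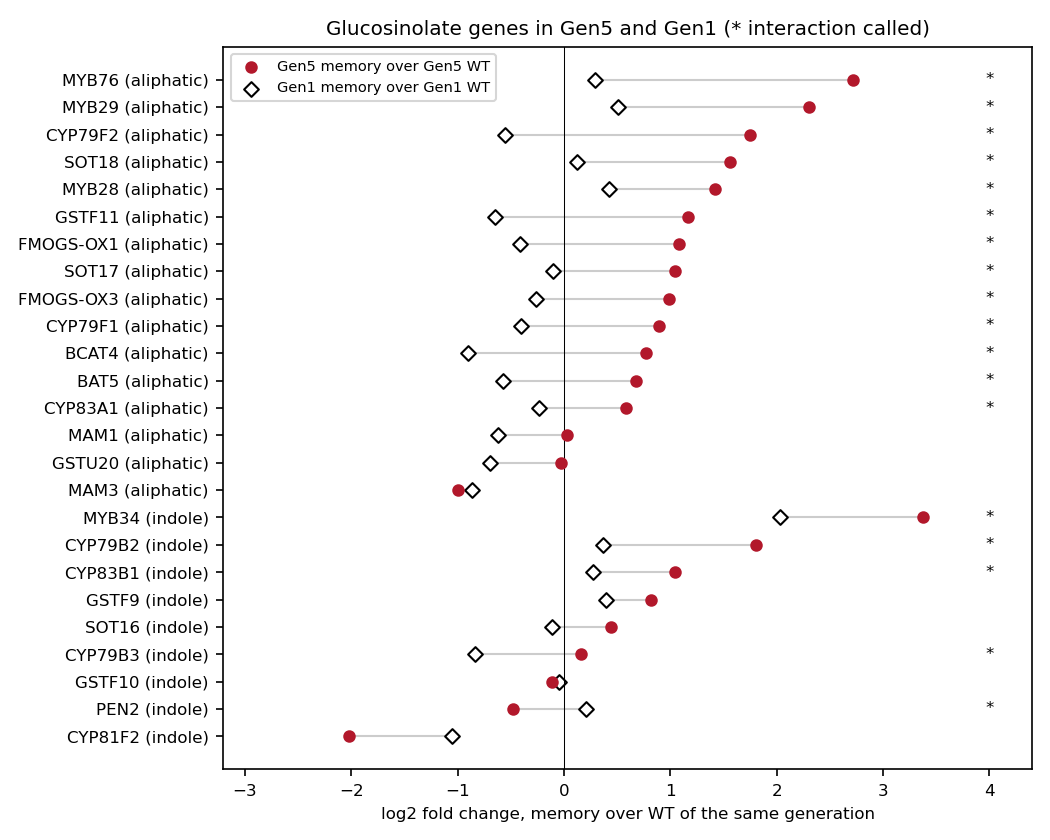
Log2 fold change of memory over WT (x axis) of each tested glucosinolate gene (rows, grouped by branch) in Gen5 (red circles) and Gen1 (open diamonds), with an asterisk where the difference between generations was called. In 17 of the 18 genes with an asterisk the Gen5 value lies to the right of the Gen1 value.

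Several genes of the flavonoid pathway, which makes sunscreen pigments and anthocyanins, fell. Of 18 tested genes 8 were called lower and 1 higher (50%, beside 27.0% of all genes), with a median of -1.09. CHS, the entry enzyme, had 2409, 2187 and 2311 normalized counts in memory plants, against 11641, 7645 and 15408 in WT plants. Memory plants were alike and all below WT plants, which varied more (log2 fold change -2.33, SE 0.23, edgeR adjusted p = 0.000181). 4CL3, F3H and FLS1 of the same pathway fell by 2.04, 1.60 and 1.11, and MYBL2, a repressor of the pathway, rose by 2.26 (SE 0.21). DFR, of the anthocyanin branch, had 6.50, 5.66 and 36.6 in memory plants, against 119, 124 and 10.8 in WT plants, and was not called. Memory plant 3 exceeded WT plant 3 in this gene. The count of lower genes was 5 without memory plant 1.

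Of 18 tested nutrient genes 55.6% were called, beside 27.0% of all genes. Calls were made in 6 of 7 iron genes, 2 of 6 copper and superoxide genes and 1 of 4 nitrate genes. Nitrate reductase NIA2, which starts nitrate use, had 31247, 22107 and 27305 normalized counts in memory plants, against 104631, 97062 and 106801 in WT plants. The groups were far apart (log2 fold change -1.93, SE 0.14, edgeR adjusted p = 3.42e-05), whereas NIA1 was not called at -0.11. Of 7 iron genes the 4 bHLH factors that signal iron shortage fell and the iron stores FER1 and FER4 rose. BHLH100 had 74.7, 788 and 374 in memory plants, against 13139, 15543 and 5478 in WT plants, and BHLH101 had 44.4, 264 and 144 in memory plants, against 2139, 2322 and 924 in WT plants. Values ranged widely within each group but did not overlap (-4.79 and -3.58, SE 0.76 and 0.57, edgeR adjusted p = 0.00175 and 0.00186). FER4 rose by 1.45 (SE 0.32) and FER1 by 1.64 (SE 0.48), and the call of FER1 was lost without memory plant 1, WT plant 1 or WT plant 2. Of 6 tested genes of copper and superoxide, FSD1, the iron superoxide dismutase, rose by 1.44 (SE 0.23), and the copper and zinc enzyme CSD1 was called lower at -0.57 (SE 0.12), though not without memory plant 1 or WT plant 2.

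The steepest changes of the starch and sugar list were in genes of the sugar and dark response. Calls were made in 26.7% of starch breakdown genes and 36.4% of starch synthesis genes, beside 27.0% of all genes. Of 31 tested starch and sugar genes 7 were called higher and 4 lower (35.5%, beside 27.0% of all genes), with a median of 0.24. BAM3, the main leaf starch hydrolase, had 66019, 63013 and 58500 normalized counts in memory plants, against 57773, 58355 and 59010 in WT plants, and was not called (0.10, SE 0.08). Of the breakdown genes 4 of 15 were called, with DPE1 and GWD1 higher at 0.59 and 0.54 and BAM9, a relative of BAM3, lower at -1.46 (SE 0.13), and GWD1 was not called without memory plant 1. Of the synthesis genes 4 of 11 were called, among them the starch synthases SS4 and GBSS1 higher at 0.77 and 0.71 and APL3, a subunit of the entry enzyme, lower at -0.61. BT2, a scaffold protein that sugar represses, had 1345, 3155 and 3237 in memory plants, against 58189, 53370 and 54230 in WT plants, and DIN10, a raffinose synthase induced by darkness, had 3134, 3541 and 3027 in memory plants, against 58243, 59705 and 57373 in WT plants. In both the groups were far apart (-4.42 and -4.17, SE 0.33 and 0.09, edgeR adjusted p = 4.27e-05 and 6.85e-07). DIN6, another dark-induced gene, was called in the other direction at 1.76 (SE 0.55), through memory plant 2 at 1109 beside 332 and 239 in the other memory plants and 118 to 193 in WT plants, and lost its call without any 1 of the WT plants. Without memory plant 1, 4 genes were called higher in place of 7.

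Several genes that maintain DNA methylation were lower in memory plants, while the called share of cell division genes was near that of all genes. Of 19 tested methylation genes 7 were called lower and 1 higher (42.1%, beside 27.0% of all genes), with a median of -0.32. Of 6 genes of RNA-directed methylation 1 was called. CMT3, which methylates CHG sites, had 1113, 739 and 1319 normalized counts in memory plants, against 2613, 2452 and 2314 in WT plants, and VIM1, which helps to maintain CG methylation, had 886, 802 and 1012 in memory plants, against 1826, 1710 and 1988 in WT plants. No memory plant reached the WT range (log2 fold changes -1.21 and -1.03, SE 0.19 and 0.11, edgeR adjusted p = 0.00175 and 0.000264). MET1, the CG methyltransferase, and DDM1, a chromatin remodeller, were called lower at -0.80 and -0.70 (SE 0.20 and 0.18), DDM1 not without WT plant 2 or WT plant 3. DML3, a demethylase, rose by 1.02, while ROS1 was not called at -0.34. Of 16 genes of the cell division list 4 were called lower and none higher, a share of 25% that is near the 27.0% of all genes. TSO2, a subunit of ribonucleotide reductase, led them at -1.42 (SE 0.14), and none of 6 mitotic genes was called. In a bulk sample such as these, fewer cells of a type and less RNA per cell cannot be told apart. Without memory plant 2, which had the lowest MET1 of its group (2002), 2 division genes were called lower in place of 4.

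None of 5 tested heat chaperones and 1 of 19 splicing genes were called. Of 16 organelle genes 4 were called higher and 1 lower, a share of 31.2% that is near the 27.0% of all genes. AOX1A, the alternative oxidase that signals mitochondrial stress, rose by 0.92 (SE 0.10) and GUN1, of plastid signalling, by 0.73 (SE 0.13), while the mitochondrial carrier DIC2 fell by 3.31 (SE 0.47). Without memory plant 3 or WT plant 3, 3 and 2 organelle genes were called lower in place of 1. Of 9 tested genes of the heat list 3 were called higher and 1 lower (44.4%, beside 27.0% of all genes). DREB2A, a drought and heat factor, rose by 1.75 (SE 0.16) and GolS1, another galactinol synthase, by 1.60 (SE 0.37). The coactivator MBF1C was called at 0.70 (SE 0.20), but not without memory plant 2, WT plant 2 or WT plant 3, and the heat shock factor HSFA2 at -0.88 (SE 0.28), but not without memory plant 1 or 3 or WT plant 1 or 2. Of 19 SR proteins, which guide splicing, 1 was called lower and none higher, beside 27.0% of all genes. This was SCL28 at -0.64 (SE 0.21), named after its values were seen, and it was called in 0 of 6 fits with a plant left out. SR30, whose splicing follows light, had 4903, 5534 and 4820 normalized counts in memory plants, against 4084, 4047 and 4438 in WT plants. Its groups did not overlap, and its log2 fold change of 0.28 (SE 0.08, edgeR adjusted p = 0.0246) was under the threshold.

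Across all genes the size of the memory effect differed between Gen5 and Gen1 in 1217 of 20183 tested genes (6.03%), in 536 (2.66%) with the Gen5 effect above the Gen1 effect and in 681 (3.37%) below it. Of the 5340 DEGs of Gen5, 850 (15.9%) had such a difference, and 640 of these had a Gen1 fold change of the same sign. Gen5 WT and Gen1 WT plants themselves differed in 2131 genes (10.7%), so a difference between generations can come from either arm. The count of 1217 depended on the WT plants: it was 752 without Gen1 WT plant 1, 773 without Gen1 WT plant 2, 753 without Gen5 WT plant 1 and 695 without Gen5 WT plant 2. COR15A is an example: it averaged 152854 ± 43534 normalized counts in Gen5 memory and 127177 ± 2408 in Gen5 WT, and 165092 ± 51156 in Gen1 memory and 28746 ± 7830 in Gen1 WT (SD, n = 3 each). Its memory effect was lower in Gen5 by 2.27 on the log2 scale (SE 0.36, edgeR adjusted p = 0.00423), and between WT groups it was higher in Gen5 by 2.15. ABI1 showed the reverse, with 7090 ± 1065 in Gen5 memory and 3492 ± 65.1 in Gen5 WT, and 6594 ± 563 in Gen1 memory and 6347 ± 368 in Gen1 WT (SD, n = 3 each). Its effect was higher in Gen5 by 0.95 (SE 0.14, edgeR adjusted p = 0.00309). For DREB1A, Gen1 memory averaged 3645 ± 1280 and Gen1 WT 72.6 ± 2.08 (SD, n = 3 each), so its level was high in memory plants of both generations. Its effect was called higher in Gen5 by 1.53 (SE 0.35, edgeR adjusted p = 0.0248), and this call was lost without Gen1 memory plant 1, Gen1 WT plant 1 or 2, or any 1 of the Gen5 WT plants (adjusted p up to 0.0763).

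Other genes with the largest rises were BBX29, a B-box zinc finger (log2 fold change 5.57, SE 0.27), AT1G70640, a PB1 domain protein (5.07, SE 0.14), the terpene synthase TPS03 (4.76, SE 0.24), the ubiquitin ligase DIP2 (4.54, SE 0.29) and the protein kinase CIPK20 (4.25, SE 0.32). BBX29 had 418, 524 and 458 normalized counts in memory plants, against 13.7, 9.44 and 5.89 in WT plants, so every memory plant was far above WT. Other genes with the largest falls were the ERF-type factors AT1G33760 and AT1G77640 (-6.80 and -6.04, SE 0.39 and 0.42), AT1G50040, of unknown function (-6.35, SE 0.19), and SOB5, a gene linked to cytokinin (-5.58, SE 0.45). SOB5 had 1.08, 10.2 and 3.14 in memory plants, against 227, 242 and 229 in WT plants, with no overlap between the groups.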

How the data were processed

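RNA was sequenced as paired libraries made with an unstranded TruSeq kit. Per the submitters' processing notes reads were aligned to TAIR10 with STAR 2.7.0a, and per the methods QoRTs counted uniquely mapped reads per gene, so near-identical copies are uncertain and overlapping or antisense genes cannot be told apart. The values deposited by the authors are raw counts per gene and plant, with no normalization. DESeq2 is also named in those notes, but its output was not used here. Each table lists 32548 nuclear genes, 133 chloroplast genes, 152 mitochondrial genes, 1144 other RNA features (0.00369 to 0.00638% of the nuclear counts in Gen5 plants) and 5 summary entries. Only nuclear genes were read.

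Genes were filtered with filterByExpr, scaled by TMM and tested with edgeR 4.0.16 (quasi-likelihood F test, two-sided, R 4.3.3), with p-values adjusted over all tested genes by Benjamini-Hochberg. DEGs had to reach an adjusted p-value below 0.05 with more than 0.5 of change on the log2 scale. The 6 Gen5 plants were fitted alone, and 12 plants in the test of the difference between generations, called at an adjusted p-value under 0.05. The SE of a log2 fold change was taken as its size divided by the square root of F. Each fit used 1 dispersion per gene for all its groups, so SE and p-values assume a like spread in memory and WT plants. Gen5 memory plants had the larger SD in 75% of genes with a mean of at least 100 normalized counts. Normalized counts were scaled over all 15 plants. An exact permutation test of 3 plants against 3 cannot go below 0.1, so none was used. The scripts were tested on simulated data. Plants of a group differed by more than counting noise (chi-square per degree of freedom 30.7 to 104 in memory pairs and 12.4 to 36.4 in WT pairs), and none was counted as a copy of another.

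The members and lists were chosen with earlier results of these data known. Of 492 list members written, 485 had a name in the annotation and 7 were left out. Named genes were the leading genes of each list, in each role the 2 largest rises and falls among called members, over all genes the 10 largest rises and falls without overlap, and the 5 largest differences between generations in each direction, in all but the leading genes with a mean of at least 100 normalized counts. This rule named 189 genes, and 34 other list members were named after their values were seen. Promoters are the 250 bases before each gene start in RefSeq's TAIR10.1, searched for CCGAC, AAAATATCT and CACGTG on both strands. Figures were drawn with Python 3.11.15 and matplotlib 3.10.9. Alternatives were RLE size factors, DESeq2 1.42.0, other filters and thresholds, all plants in one fit, a replicate block, each plant left out and a window of 50 further bases after the start. Methylation data were not analysed here, and Gen1 nonmemory plants entered only the scaling of normalized counts and the fit of all plants.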

Additional observations from a re-analysis of the deposited data

Results flagged for a closer look

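The effect of memory over WT differed between Gen5 and Gen1 in the interaction test, with 536 genes higher and 681 lower in Gen5. Among genes with a mean of at least 100 normalized counts, the largest positive difference was that of SPX1, which acts in phosphate signalling, at 2.92 on the log2 scale (edgeR adjusted p = 0.000692). It averaged 1067 ± 190 normalized counts in Gen5 memory and 666 ± 47.9 in Gen5 WT, and 1003 ± 229 in Gen1 memory and 4810 ± 1448 in Gen1 WT (SD, n = 3 each). The ethylene response factor ERF5 differed by 2.75 (edgeR adjusted p = 0.00843), with 380 ± 150 in Gen5 memory and 246 ± 67.6 in Gen5 WT, and 446 ± 192 in Gen1 memory and 1969 ± 591 in Gen1 WT. AT1G76530, of the auxin efflux carrier family, differed by 2.73, and MYB76, a factor of aliphatic glucosinolates, by 2.42 (edgeR adjusted p = 0.00978 and 0.00602). The value of the senescence factor NAP was 2.43 (edgeR adjusted p = 0.0338), and its call was lost in 8 of the 12 fits that each left out 1 plant.

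The largest negative difference was that of the protein kinase WNK9, at -4.01 (edgeR adjusted p = 0.011), with 122 ± 72.7 normalized counts in Gen5 memory and 102 ± 25.1 in Gen5 WT, and 80.3 ± 29.9 in Gen1 memory and 4.1 ± 0.529 in Gen1 WT (SD, n = 3 each). SLAH3, an anion channel gene, had -3.47 (edgeR adjusted p = 0.00293), with 514 ± 88.9 in Gen5 memory and 9931 ± 846 in Gen5 WT, and 556 ± 36.2 in Gen1 memory and 983 ± 556 in Gen1 WT. AT4G16563, an aspartyl protease gene, had -3.18, the chaperone gene AT1G71000 -3.10 and AT1G66060, of unknown function, -3.54 (edgeR adjusted p = 0.000692, 0.0137 and 0.0032).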

How the results depend on the processing

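The count of 5340 DEGs was 4544 to 5510 when 1 plant was left out (2228 to 2620 higher, 2316 to 2890 lower) and 5541 with DESeq2. At an absolute log2 fold change over 1 it was 2221 (1024 higher, 1197 lower), where 46.1% of calls were higher, beside 49.4%. The generation difference was called in 2023 genes (911 higher, 1112 lower) with DESeq2, in 428 (172 higher, 256 lower) at an adjusted p-value under 0.01, and in 695 to 1345 (286 to 687 higher, 409 to 719 lower) with 1 plant left out. Gen5 WT differed from Gen1 WT in 676 genes at an absolute log2 fold change over 1 and in 1674 to 2380 with 1 plant left out. With 300-base promoters CCGAC was held by 14.6% of higher, 15.3% of lower and 16.4% of all tested genes, the evening element by 5.92% of higher and 3.09% of all, and the G-box by 12.0% of higher and 8.78% of all. Plants with equal replicate numbers did not vary together (r of deviations from the group mean -0.352 to 0.000536). For unequal numbers r was -0.186 to 0.336, on average 0.0758. Deviations were centred within each group, so the 2 sets of values depend on each other and are no independent comparison. With the number as a block 5028 DEGs, 1236 generation differences and 2406 genes between the WT groups were called.

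Among named genes, 2911 log2 fold changes kept direction and call under an alternative, 150 lost the call, 16 gained it and 31 changed sign, all of these in genes that were not called. They were LOX2 (-0.01) with all 15 plants in one fit, LOX2 (0) and ZAT12 (-0.14) with the replicate block and, over the fits with 1 plant left out, WNK9 (-0.02 to 0.68), COR27 (-0.25 to 0.01), TOC1 (-0.06 to 0.01), LUX (-0.1 to 0.06), RVE4 (-0.14 to 0.08), LOX2 (-0.13 to 0.08), JAZ10 (-2.22 to 0.42), RAB18 (-0.16 to 0.5), PAP1 (0 to 0.73), MCM2 (-0.17 to 0.04), NIA1 (-0.24 to 0.02), ZAT12 (-0.24 to 0.52) and EXPA5 (0 to 0.16). Leaving out 1 plant cost 25 named genes their call in at least 1 fit. The cause was not tested in any of these. Depth was alike in all Gen5 plants. Other limits are 3 plants per group, 1 memory lineage, an unstated hour of harvest and plants taken by stage, whose age may differ between the groups.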
